A study of Mus musculus with 3 samples.

Results

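The Tribbles genes Trib1, Trib2 and Trib3 were followed by their symbols in a table of read counts for 20162 mouse genes, in which each of the 3 symbols stood at 1 identifier. All 3 passed the filter on low counts that 14478 genes passed. The counts came from the mouse line C2C12, myoblasts that fuse into multinucleate myotubes once serum is withdrawn. Tead4 shRNA A and Tead4 shRNA B were puromycin-selected populations carrying lentiviruses for different short hairpin RNAs (shRNAs) against Tead4, which codes for a transcription factor that binds DNA through a TEA domain, and the control population carried a control shRNA. Every population was grown in 10% fetal calf serum and then kept for 7 days in 2% horse serum before poly(A) RNA was sequenced. Each shRNA had 1 library and these are cell populations rather than clones, so no value below has a repeat culture of the same shRNA behind it. The genes were chosen for how they differed between the shRNA libraries and the control library, so those differences are descriptions and carry no test.

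Tribbles proteins have the fold of a kinase but are pseudokinases, which bind ATP weakly or not at all and act mainly as scaffolds. Their pseudokinase domain holds a substrate and their C-terminal tail binds the ubiquitin ligase COP1, so that proteins such as the transcription factor C/EBPα are marked for degradation; the tail also binds MAPK kinases. TRIB1 and TRIB2 are best known for this action on C/EBPα, in which they can drive leukaemia in mice. TRIB3 is best known as a target of the stress factors ATF4 and CHOP and is reported to bind the kinase AKT, a mediator of insulin action in liver and muscle.

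In the libraries with Tead4 shRNA the make-up of the family differed from that in the control library. Trib3 was lower with shRNAs A and B than in the control library, with log2 ratios of -5.81 and -6.13. Trib2 was higher, with log2 ratios of 2.57 and 3.03, and Trib1 was higher by less, with log2 ratios of 0.62 and 0.94. All log2 ratios compare counts after TMM scaling, which corrects library size by a trimmed mean of log ratios, and CPM are depth-scaled counts on that scale.

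The promoter sequences of Trib3 and Trib2, the members for which the RefSeq table held one, are shown for the search for stress response elements. They run from 250 bases before to 50 bases after the annotated start, 5′ to 3′ along the gene, from RefSeq on GRCm38.p6, a later build than the mm9 build of the counts. Trib3 lies at chr2:152344011-152344310 and Trib2 at chr12:15816736-15817035, both on the minus strand. Capitals mark stretches that matched, exactly or with 1 mismatch, the composite element that ATF4 and C/EBP factors bind.
Trib3: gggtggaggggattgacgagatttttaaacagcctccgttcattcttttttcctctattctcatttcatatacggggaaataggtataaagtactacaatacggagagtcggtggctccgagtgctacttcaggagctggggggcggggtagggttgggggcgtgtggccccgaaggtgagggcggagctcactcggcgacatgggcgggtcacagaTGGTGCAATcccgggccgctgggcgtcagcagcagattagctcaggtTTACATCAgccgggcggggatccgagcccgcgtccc
Trib2: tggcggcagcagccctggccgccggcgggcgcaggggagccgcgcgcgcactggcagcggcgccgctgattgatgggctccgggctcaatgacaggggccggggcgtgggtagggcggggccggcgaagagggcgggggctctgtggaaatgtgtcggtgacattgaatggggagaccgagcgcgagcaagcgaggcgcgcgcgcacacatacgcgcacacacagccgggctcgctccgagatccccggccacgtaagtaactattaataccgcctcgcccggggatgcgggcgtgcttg

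The Trib3 window held TGGTGCAAT at 33 bases before the start, which differs from the element TGATGCAAT by the substitution A3G, counted from 1 at the element's 5′ end. It also held TTACATCA, beginning 14 bases downstream of the first transcribed base, which is the reverse complement of a match to the looser form TGATGNAA. Searched on both strands, TGATGCAAT with up to 1 mismatch was found in 4.41% of 32851 promoter windows of the same length, and TGATGNAA in 3.97%. The Trib2 window held neither form. No exact match to TGATGCAAT itself (0.192% of windows), to the reticulum stress element known as ERSE (0.119%), to the TEAD element GGAATG (14.7%), to the FOXO element GTAAACA (3.65%) or to the cAMP response element TGACGTCA (1.79%) was found in either window. GC content was 58.3% for Trib3 and 71.0% for Trib2, against a median of 52.7% over all windows. These matches describe letters in the windows and do not show binding.

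Trib3, the stress-induced member, was far lower in the shRNA libraries. Reads numbered 94 and 59 in the libraries of shRNAs A and B, against 4204 in the control library. Scaled, this was 4.67 CPM for shRNA A (95% exact Poisson interval 3.78 to 5.72) and 3.74 CPM for shRNA B (2.85 to 4.83), against 261.8 CPM in the control library (254.0 to 269.9). The intervals of the shRNA libraries overlapped each other and lay far below that of the control library. For shRNA A the log2 ratio had a 95% exact (Clopper-Pearson) interval of -6.12 to -5.51, and for shRNA B of -6.52 to -5.76. The control level was 56.0 times the level with shRNA A and 69.9 times that with shRNA B. Between the hairpins, the log2 ratio of A over B was 0.32, with an interval of -0.17 to 0.81 that included no difference. Ranked by fitted log2 fold change over both shRNA libraries, Trib3 was the gene in place 11 from the lowest among the 14478 tested.

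Trib2, a COP1 adaptor that acts on C/EBPα, went the other way from a low level. Its counts were 215 and 232 reads in the libraries of shRNAs A and B, against 29 in the control library. That gave 10.7 CPM for shRNA A (9.31 to 12.2) and 14.7 CPM for shRNA B (12.9 to 16.7), against 1.81 CPM in the control library (1.21 to 2.59). Both shRNA libraries were high, at 5.92 and 8.15 times the control level, and no intervals overlapped. The interval of the log2 ratio was 2.00 to 3.18 for shRNA A and 2.47 to 3.64 for shRNA B. The level with shRNA A was lower than with shRNA B (log2 ratio of A over B -0.46, interval -0.74 to -0.19). In the ranking from the highest fitted fold change Trib2 stood at place 154.

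Trib1, the other COP1 adaptor of C/EBPα, differed least. There were 311 and 304 reads in the libraries of shRNAs A and B, against 161 in the control library. In CPM it stood at 15.5 for shRNA A (13.8 to 17.3) and 19.3 for shRNA B (17.2 to 21.6), against 10.0 in the control library (8.54 to 11.7). The shRNA libraries were both above the control interval, at 1.54 and 1.92 times its level, and their log2 ratios had intervals of 0.35 to 0.91 and 0.66 to 1.23. As for Trib2, shRNA A gave less than shRNA B (log2 ratio of A over B -0.32, interval -0.55 to -0.09).

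**Figure D1:**
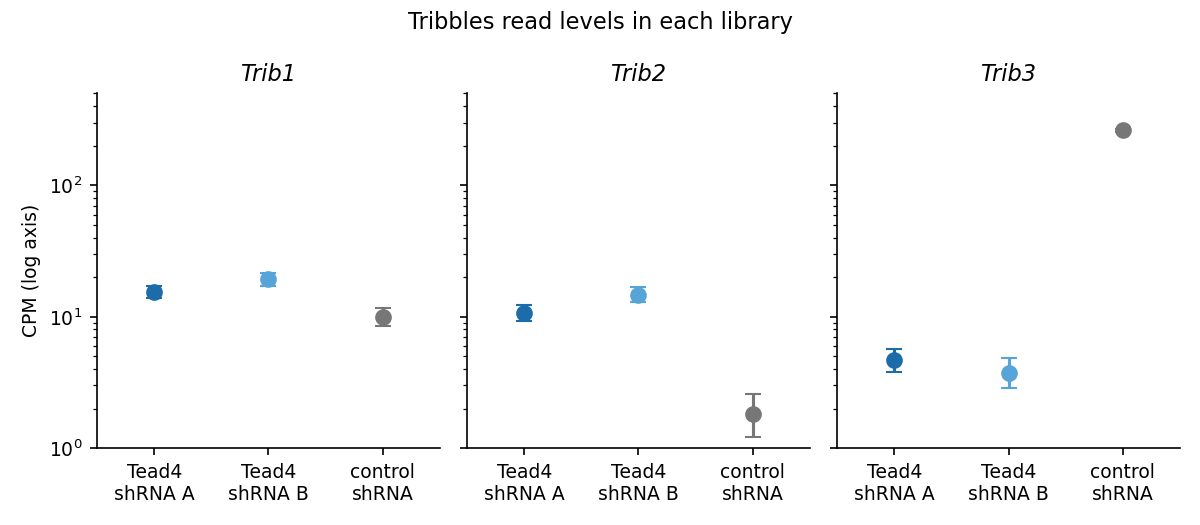
Read level of each Tribbles gene in CPM on a log axis, 1 point per library with its 95% exact Poisson interval, for the Tead4 shRNA A, Tead4 shRNA B and control libraries. Trib1 and Trib2 stand higher and Trib3 lower in both shRNA libraries than in the control library, where Trib3 reaches 261.8 CPM.

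These intervals hold counting error alone, and they are too narrow where PCR copies of the same molecule were counted as separate reads. Between the shRNA libraries, 50.6% of all tested genes had an A over B interval that excluded no difference, so an interval that excludes it, as for Trib1 and Trib2, is common here. With a rule of at least 2-fold in both shRNA libraries and both intervals excluding no change, Trib2 was higher, Trib3 lower and Trib1 in neither class. Over all tested genes, 4.63% were higher and 3.10% lower by that rule. Because the members were chosen by this comparison, nothing is read from their count against these shares. In bulk RNA, fewer cells that express a gene and less RNA per cell cannot be told apart.

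On a per-length scale Trib3 stood far above the other members in the control library, and the members lay close together in the shRNA libraries. Exon lengths, merged over the transcripts of a later annotation (GENCODE M21), were 6.248 kb for Trib1, 4.335 kb for Trib2 and 2.125 kb for Trib3. With shRNA A the levels were 2.47 CPM per kb for Trib1 (2.21 to 2.77), 2.47 for Trib2 (2.15 to 2.82) and 2.20 for Trib3 (1.78 to 2.69), and these intervals overlapped. With shRNA B the order was Trib2 at 3.40 CPM per kb (2.97 to 3.86), Trib1 at 3.09 (2.75 to 3.46) and Trib3 at 1.76 (1.34 to 2.27), with overlap between Trib2 and Trib1 but not with Trib3. In the control library Trib3 stood at 123.2 CPM per kb (119.5 to 127.0), Trib1 at 1.60 (1.37 to 1.87) and Trib2 at 0.417 (0.279 to 0.598), each clear of its neighbour. As a share of the summed per-length level, Trib3 made up 30.8% for shRNA A and 21.4% for shRNA B, against 98.4% in the control library. The summed reads of the family were 30.8 and 37.8 CPM with shRNAs A and B, against 273.6 CPM in the control library. Gene lengths of the authors' annotation were not used here, so the order between genes depends on this annotation.

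**Figure D2:**
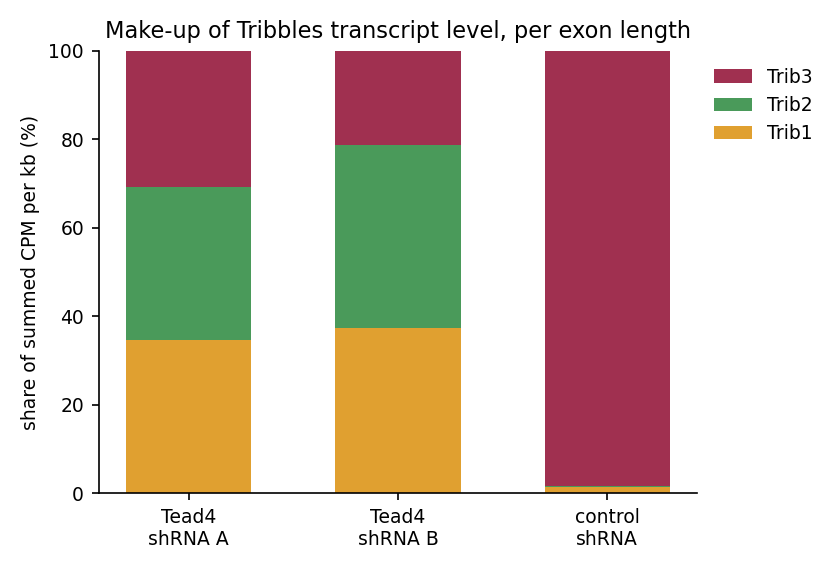
Share of the summed CPM per kb of exon length taken by Trib1, Trib2 and Trib3, in percent, 1 stacked bar per library. Trib3 takes 30.8% and 21.4% in the bars of shRNAs A and B, against 98.4% in the control library.

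Sequence shared with other genes was looked for in the transcripts of GENCODE M21. Of 6177 stretches of 72 bases, the read length, in Trib1 transcripts, 0 occurred exactly in a transcript of another gene on either strand, and likewise 0 of 4407 for Trib2 and 0 of 2121 for Trib3. In GENCODE M21 no gene overlapped Trib1 or Trib3, and the 1 gene that overlapped Trib2, the microRNA gene Mir6387, shared 0 exon bases with it. The nearest tested protein-coding genes on the same chromosomes, 2 on each side of each member, were set beside them. Beside Trib3, the ubiquitin ligase subunit gene Rbck1 had a log2 fold change of 0.17 (SE 0.23), Tbc1d20 of -0.40 (SE 0.22), Sox12 of -0.78 (SE 0.40) and Defb25, with 3 and 10 reads against 2, of 1.55 (SE 1.64). Beside Trib2, Fam84a had 41 reads in each shRNA library, against 8 in the control library (log2 fold change 2.20, SE 0.74, edgeR adjusted p = 0.0656), while Nbas, Lpin1 and Greb1 had log2 fold changes of -0.40, -0.55 and 0.47. None of these 8 genes passed the test, in which Defb25 and Fam84a had few reads. Of the genes around Trib1, the growth regulator Myc fell by 1.92 (SE 0.22, edgeR adjusted p = 3.79e-06), opposite in direction to Trib1, and the others did not pass.

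The knockdown itself was visible in both shRNA libraries. Tead4 had 397 and 170 reads with shRNAs A and B, against 1256 in the control library (log2 ratios -1.99 and -2.86), so the remaining Tead4 level was higher with shRNA A than with shRNA B (log2 ratio of A over B 0.87, interval 0.61 to 1.14). Library totals lay between 15594305 and 19918954 reads. Genes other than the members were tested with edgeR's quasi-likelihood test of both shRNA libraries against the control library, with Benjamini-Hochberg adjusted p under 0.05 as the call; 9.82% of tested genes were called, 5.34% higher and 4.48% lower. The only spread in that test is the one between the shRNA libraries, and the test takes the control to be equally variable. When the dispersion was instead taken over all 3 libraries pooled as 1 group, a likelihood-ratio test called 0 genes; either change alone left 753 or more genes called higher and 616 or more called lower. The median log2 fold change of all tested genes was 0.02.

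The stress programme around Trib3, the factors and targets of the ATF4 and CHOP branch, was lower with Tead4 shRNA. Among its 31 tested genes, 27 fell and 0 rose, and the median log2 fold change was -1.94. The called share was 87.1%, against 9.82% over all tested genes. This list overlaps genes already known to fall in these libraries and is not independent evidence of the direction. Atf4, the factor whose translation rises when the initiation factor eIF2α is phosphorylated, had 3210 and 2742 reads with shRNAs A and B, against 15641 in the control library (log2 fold change -2.55, SE 0.23). Herpud1, a reticulum membrane protein, fell by 3.47 (SE 0.25), the amino acid transporter Slc7a5 by 2.20 (SE 0.23), the seryl-tRNA synthetase Sars by 1.29 (SE 0.23) and the serine synthesis enzyme Psat1 by 1.29 (SE 0.23). The members of the list that were not called, named after their values were seen, were Vldlr, Stc2, Slc7a11 and Tnfrsf10b, with log2 fold changes of 0.42, -0.46, -0.40 and -0.62. Slc7a3, at 6 reads or fewer per library, was not tested.

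The genes whose pair of log2 ratios lay nearest to that of Trib3 were mostly from this programme, 4 of the 5 being on the list. Likeness was the Euclidean distance between pairs of log2 ratios, over 3 libraries and 10655 named genes with a mean of at least 5 CPM. The members were chosen by these same ratios, so likeness describes ratios of similar size and is no evidence of a shared programme. Nearest was Gdf15, a secreted stress factor, at a distance of 1.49, with log2 ratios of -4.60 and -5.25. Ddit3, which codes for CHOP, followed at 1.73 (-4.71 and -4.79), then Chac1, a glutathione-degrading enzyme, at 1.88, the transcription factor Atf3 at 2.10 and the adhesion protein gene Cdsn at 2.16. All 5 had smaller falls than Trib3 in both libraries. Gdf15, Atf3 and Cdsn were below 5 CPM in both shRNA libraries and reached that mean only through the control library. The list of sensors upstream of ATF4 also held Ern1 and Atf6, which belong to other branches of the stress response. Of its 9 tested genes, 1 rose and 1 fell (22.2% called), with a median of -0.08. Over all tested genes 9.82% were called, so these calls among so few genes are not read as a result about the list. The eIF2α kinase Eif2ak2 rose by 0.84 (SE 0.25, edgeR adjusted p = 0.0324) and the reticulum sensor Ern1 fell by 0.95 (SE 0.22, edgeR adjusted p = 0.00752); DESeq2 did not call Eif2ak2.

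**Figure D3:**
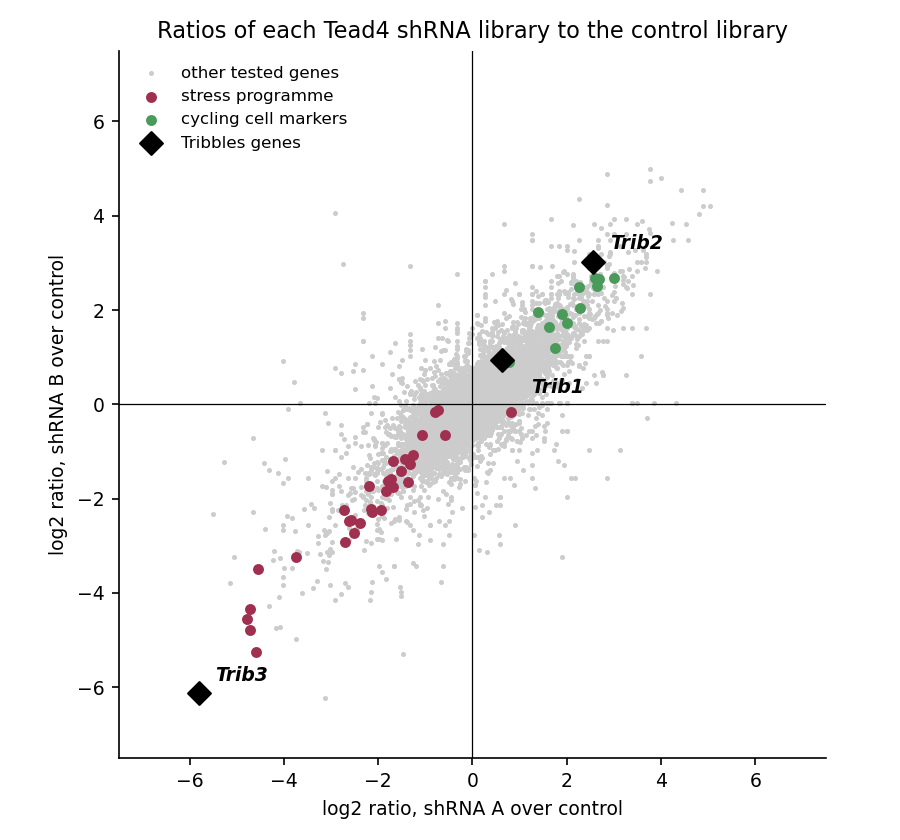
Log2 ratio of shRNA A over control on the x axis and of shRNA B over control on the y axis, 1 point per tested gene, with the stress programme, the cycling cell markers and the Tribbles genes marked; 137 tested genes at 0 reads in a library are not drawn. Trib3 lies beyond the stress genes at -5.81 and -6.13, and Trib2 at 2.57 and 3.03 lies near the highest cycling cell markers, with a shRNA B ratio above that of every one of them, the highest of which was 2.67 (Plk1 and Ccnb2); both axes share the control library.

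Nearest to Trib2 by the same measure, which again describes only ratios of similar size to the shared control library, were genes of cell division. They were the mitotic activator Cdc20 at a distance of 0.29 (log2 ratios 2.71 and 2.77), the mitotic kinase Pbk at 0.31, the microtubule depolymerase Kif2c at 0.33, the cyclin Ccnb2 at 0.36 and the kinesin Kif20a at 0.36. Cdc20, Pbk, Kif2c and Ccnb2 were below 5 CPM in the control library. They reached a mean of 5 CPM only through the shRNA libraries, where they were high. All 12 tested cycling cell markers rose (median log2 fold change 2.04), where 5.34% of all tested genes were called higher. The list was chosen with earlier results of these data known. Summed, these markers stood at 362.5 and 365.1 CPM for shRNAs A and B, against 119.4 CPM in the control library. Among them the proliferation marker Mki67 rose by 2.59 (SE 0.28), Cenpf by 2.66 (SE 0.29), the cyclin Ccna2 by 2.38 (SE 0.29), Top2a by 1.91 (SE 0.25) and Rrm2 by 0.84 (SE 0.23). No marker of this list was at 0 in all libraries. The part of these markers in the Tribbles levels was not tested.

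Close to Trib1 lay the Notch target Hes1 (distance 0.02, log2 ratios 0.64 and 0.96), the engulfment adaptor Gulp1 (0.04), the zinc finger gene Zfp281 (0.05), Vgll2, a cofactor of TEAD proteins (0.06), and the semaphorin Sema4d (0.06). Of these Hes1, Gulp1 and Zfp281 rose in the edgeR test, with log2 fold changes of 0.80, 0.77 and 0.79, and RLE scaling, another library-size correction, ended these 3 calls, as did DESeq2. Vgll2 and Sema4d, at 0.81 and 0.82, did not pass. Markers of reserve cells, the mononucleate quiescent cells of a myotube culture, rose in 6 of 13 members and fell in 1, with a median of 0.72. That was a called share of 53.8%, against 9.82% over all tested genes. The syndecan Sdc3 rose by 1.16 (SE 0.25), Spry1 by 1.18 (SE 0.26), Id1 by 1.08 (SE 0.26) and Cd34 by 1.23 (SE 0.27), while the muscle factor Myf5 fell by 1.35 (SE 0.24). The list's summed level was 796.2 and 745.9 CPM with shRNAs A and B, against 551.2 CPM in the control library, and its part in the Trib1 level was not tested.

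The cells were muscle by their markers in every library. The 14 myotube markers, among them the actin Acta1 and desmin (Des), were all detected, with a summed level of 20865 and 24826 CPM for shRNAs A and B, against 30373 CPM in the control library. Among them 5 fell and 1 rose, and the median log2 fold change was -0.33. The called share was 42.9%, against 9.82% over all tested genes. The muscle factor Myog fell by 1.44 (SE 0.24), the embryonic myosin Myh3 by 1.63 (SE 0.24), the troponin Tnnt3 by 1.15 (SE 0.24) and Tnni1 by 0.89 (SE 0.26), a call that ended under RLE scaling and with edgeR's newer quasi-likelihood method. The creatine kinase Ckm fell by 1.06 (SE 0.24), and the fast myosin Myh4 rose by 1.03 (SE 0.25). The part of this shift in the Tribbles levels was not tested. The 6 adipocyte markers in the table, of a fate that Tribbles proteins are known to restrain in other cells, had a summed level of 86.0 and 107.0 CPM for shRNAs A and B, against 144.0 CPM in the control library. Fabp4 had 1 and 0 reads with shRNAs A and B, against 1 in the control library, and Cidec had 3 and 0, against 0. The fat cell factor Pparg had 106 and 117 reads, against 125, and the lipase Lipe had 127 and 55, against 86. Of the 4 tested members of that list Cebpa rose and the fatty acid transporter Cd36 fell by 0.999 (SE 0.24). That was 50% called, against 9.82% over all tested genes, and with so few genes it is not read as a result.

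No gene of the ligase that Tribbles proteins recruit was called. Of 9 tested genes of the COP1 ligase and other ligases that bind Tribbles proteins, 0 were called by edgeR, 1 had an unadjusted p under 0.05 and 0 were called by DESeq2, with a median of -0.20. Over all tested genes 9.82% were called, so 0 among so few genes is not read as a result. The most abundant genes of the list, Ddb1 and Cul4a, had log2 fold changes of -0.42 (SE 0.24) and -0.15 (SE 0.23). COP1 itself (listed as Rfwd2 and named outside the rule) had 705 and 595 reads with shRNAs A and B, against 681 in the control library, a log2 fold change of -0.22 (SE 0.23).

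Among 14 tested genes for reported substrates of Tribbles or COP1, 3 rose and 1 fell, a called share of 28.6%, with a median of -0.21. The C/EBP genes split. Cebpa also stood among the adipocyte markers and Cebpb in the stress programme, so their calls are not separate results for those lists. Cebpa, for the substrate most tied to TRIB1 and TRIB2, had 567 and 352 reads with shRNAs A and B, against 180 in the control library (log2 fold change 1.17, SE 0.27, edgeR adjusted p = 0.00584). Cebpb had 636 and 698 reads, against 1638 in the control library, and fell by 1.43 (SE 0.23, edgeR adjusted p = 2.12e-04). Ets1, a transcription factor of the ETS family, rose by 1.07 (SE 0.26), and the Wnt effector Tcf7l2 rose by 1.05 (SE 0.32, edgeR adjusted p = 0.0420), a call that ended under RLE scaling and with DESeq2. These are transcript levels, and protein levels, on which Tribbles proteins act, were not measured.

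In the AKT and insulin pathway, to which TRIB3 is linked, 2 of 23 tested genes rose and 1 fell, a called share of 13.0%, with a median of 0.04. That share lay near the 9.82% called over all tested genes and is not read as a result about the pathway. The insulin receptor adaptor Irs1 rose by 1.22 (SE 0.25) and the phosphoinositide kinase subunit Pik3r1 by 0.98 (SE 0.25), while Pik3cb fell by 0.81 (SE 0.22), a call that DESeq2 did not make. The kinases Akt1 and Akt2, named outside the rule, had log2 fold changes of 0.16 and 0.04. Of 22 tested FOXO target genes, which TRIB2 is reported to restrain through FOXO3, 1 rose and 5 fell (27.3% called), with a median of -0.21. The thioredoxin inhibitor Txnip rose by 4.06 (SE 0.30). Gadd45a fell by 1.47 (SE 0.23), the translation inhibitor Eif4ebp1 by 1.72 (SE 0.22), the muscle ubiquitin ligase Trim63 by 1.27 (SE 0.24), Cdkn1b by 0.72 (SE 0.21) and Bnip3 by 0.76 (SE 0.23). DESeq2 called neither Cdkn1b nor Bnip3, and RLE scaling also ended the call of Bnip3.

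Of 15 tested MAPK kinases and MAP kinases, the partners of the Tribbles tail, 0 were called by edgeR, with a median log2 fold change of 0.10 and 2 at an unadjusted p under 0.05, and DESeq2 called 0. As 9.82% of all tested genes were called, 0 among so few is not read as a result. Map2k1, an abundant member of the list, had a log2 fold change of -0.23 (SE 0.22). Genes known to follow ERK activity moved both ways: 5 of 19 rose and 3 fell (42.1% called), with a median of 0.42. Egr1 and Egr3, immediate early factors, rose by 1.67 (SE 0.24) and 1.57 (SE 0.27), the cyclin Ccnd1 by 2.16 (SE 0.25), and the feedback inhibitors Spry1 and Spry2 by 1.18 (SE 0.26) and 0.90 (SE 0.23). Spry1 also stood among the reserve cell markers. The phosphatase Dusp4 fell by 0.97 (SE 0.22), Myc by 1.92 (SE 0.22) and Ier3 by 0.86 (SE 0.24); DESeq2 did not call Ier3.

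No other pseudokinase gene was called. Of 19 tested, 0 were called by edgeR, with a median of -0.08 and 1 at an unadjusted p under 0.05, and DESeq2 called 0. With 9.82% called over all tested genes, 0 in a list of this size is not read as a result. The most abundant genes of the list, the Wnt receptor Ryk and the adhesion scaffold Ilk, had log2 fold changes of -0.06 (SE 0.23) and 0.30 (SE 0.23). Stk40, the closest relative of the Tribbles genes outside the family and named outside the rule, had 558 and 425 reads with shRNAs A and B, against 536 in the control library (log2 fold change -0.29, SE 0.23). With total-count scaling or without the filter on low counts, 1 gene of this list was called higher.

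**Figure D4:**
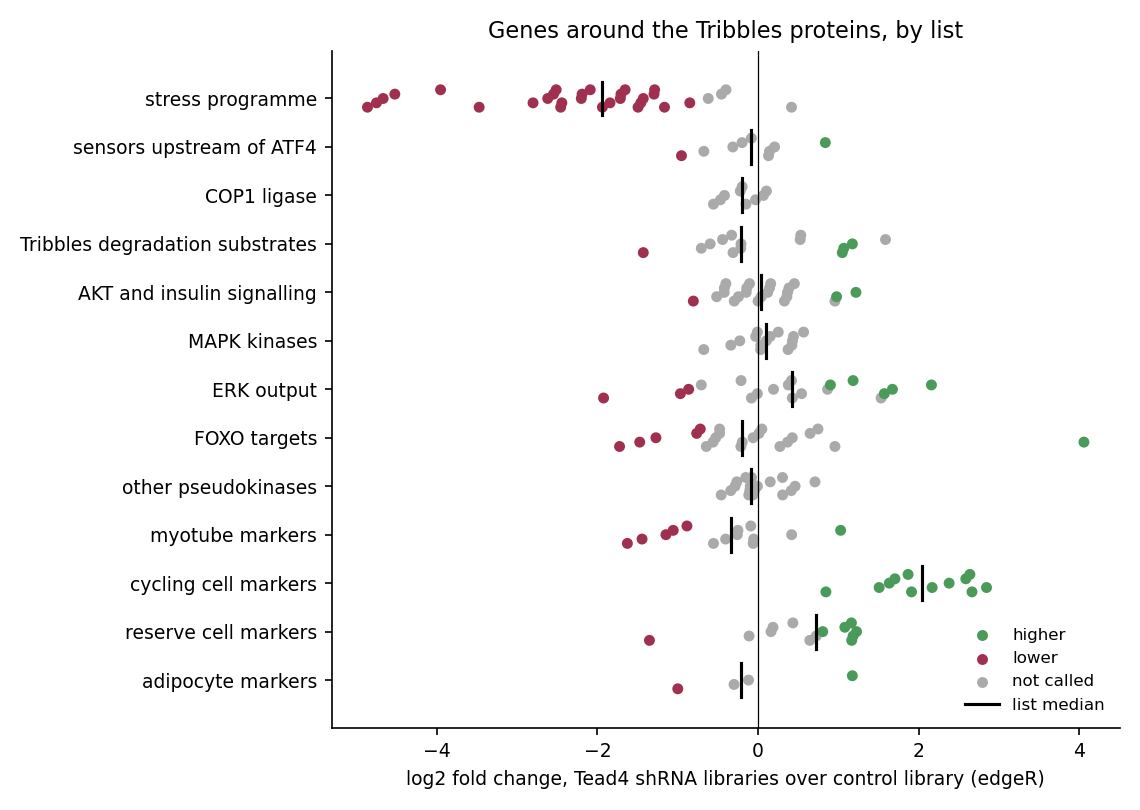
Log2 fold change of both Tead4 shRNA libraries over the control library for each tested gene of 13 lists, 1 point per gene, coloured by the edgeR call, with a bar at the list median. The stress programme lies lowest, with a median of -1.94, and the cycling cell markers highest, with a median of 2.04. The COP1 ligase, MAPK kinase and other pseudokinase lists hold no called gene, where 9.82% of all tested genes were called.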

How the data were processed

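The authors deposited 1 table of raw read counts per Ensembl gene and, beside them, normalized values, which are a score equal to the raw count times 1 factor per library, rounded (0.801, 1.02 and 1.00 for shRNA A, shRNA B and control; 0 values off by more than rounding). TopHat 1.0.12, Cufflinks 0.8.2, DESeq and mm9 are named, per the submitters' processing notes; how reads were counted and on which annotation release is not given in the sources used here. Per the labels' protocols, the library kit does not mark strand.

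The count test was that of edgeR 4.0.16 in R 4.3.3 (filterByExpr, TMM factors 1.01, 1.01 and 0.979, legacy quasi-likelihood F test, Benjamini-Hochberg over 14478 genes), tested on simulated data first. The design leaves 1 residual degree of freedom, between different shRNAs. The test adds a prior of 20.9 degrees of freedom from dispersion shared across genes. Each p-value and SE thus rests mostly on the spread of all genes between those shRNAs, which may be technical. SE is the absolute log2 fold change over the square root of F. The largest library held 19918954 reads and the smallest 15594305. Alternatives included DESeq2 1.42.0. Of the identifiers, 18701 of 20162 matched GENCODE M21. Promoters matched for Trib2 and Trib3; Trib1 is named only.

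The members and lists were chosen with earlier results of these data known. Besides the members and Tead4, named genes were up to 5 called members per list and direction with the highest mean CPM, the 2 most abundant where none was called, and the 5 nearest to each member by log2 ratios; predicted genes were skipped, and 1 gene that the rule picks is not reported here.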

Additional observations from a re-analysis of the deposited data

How the results depend on the processing

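The log2 ratios of Trib1, Trib2 and Trib3 stayed within their counting intervals under RLE scaling, total-count scaling and the authors' normalized values, with ranges of 0.62 to 0.67 and 0.93 to 0.99 for Trib1, 2.56 to 2.61 and 3.02 to 3.07 for Trib2, and -5.81 to -5.76 and -6.14 to -6.08 for Trib3 (shRNA A, then shRNA B). All of them rest on the 1 control library, which could not be left out. Leaving out either shRNA gave a value with no test, and the 66 genes named by the rule kept their direction. Some of the genes named outside it, none of them called, changed sign. Akt2 turned to -0.14, and Lipe from a fitted -0.12 to 0.24, without shRNA B. Vldlr turned to -0.17 and Rbck1 to -0.06 without shRNA A. The median turned to 0.03 for the sensors and 0.01 for the other pseudokinases without shRNA B, and to -0.02 for the AKT pathway without shRNA A. No paired analysis was possible because there is only 1 control library.

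DESeq2 called 464 genes higher and 374 lower, against 773 and 649 with edgeR; in the lists it called 0 sensors higher, 0 AKT pathway genes lower and 3 FOXO targets lower. With total-count scaling 2 FOXO targets and 1 other pseudokinase were called higher; without the filter these counts were 3 and 1, and 2 degradation substrates were called lower. When all 3 libraries were pooled as 1 group to estimate the dispersion, a likelihood-ratio test called 0 genes higher and 0 lower, so 0 in every list, and 540 had an unadjusted p under 0.05. In checks chosen after seeing the data, that pooling with the quasi-likelihood test called 753 and 616 genes, and the likelihood-ratio test without pooling 916 and 751, with 2 sensors lower; neither ended the call of a named gene. Of 66 named genes with a fitted value, excluding the Tribbles genes, DESeq2 ended 9 calls, RLE scaling 6, the newer quasi-likelihood method 1 (Tnni1) and the likelihood-ratio test with pooling 58; no sign changed. Depth limits Trib2 most, with 29 reads in the control library.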
